A study of Drosophila melanogaster with 2 samples.

Results

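Protein synthesis in the fly embryo depends on the eukaryotic initiation factors (eIFs), which bring the ribosome, the messenger RNA and the initiator tRNA together, and on the aminoacyl-tRNA synthetases, which charge each tRNA with its amino acid. The 79 genes described here were taken by symbol from the 13945 protein-coding genes of the Ensembl models on the 6 chromosome arms. Of these, 44 had a symbol made of eIF and a digit, and 35 had a symbol ending in RS or RS-m after an amino acid abbreviation. The suffix -m marks a mitochondrial enzyme, so 20 synthetases without it were taken as cytosolic and 15 with it as mitochondrial. Some genes without the suffix may encode both forms, so cytosolic here means only that the symbol lacks it. For every gene the highest signal of a region whose summit lay within 500 bp of any annotated start was read from each region list.

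The regions come from chromatin immunoprecipitation with sequencing (ChIP-seq) of ERR, the fly oestrogen-related receptor, in 2 biological replicates numbered 2 and 3, which form 1 group. Both were whole embryos of mixed sex, 0 to 24 h old, from a stable transgenic line in which green fluorescent protein (GFP) is joined to the C-terminus of ERR, and an antibody to GFP was used. The promoter that drives the fusion gene and the presence of untagged ERR are not stated in the labels, and all tissues and stages of the collection are mixed. The labels name a possible control experiment, not used here, so no level of background binding can be set beside the values.

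ERR belongs to the nuclear receptors and is known in the fly for activating genes of sugar metabolism. Nuclear receptors of this family bind the letters AAGGTCA, usually with a T and a further base before them. Genes of the protein synthesis machinery are often active in most cells, and their promoters frequently carry binding sites of the factors DREF and M1BP.

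The lists differ in how strictly regions were chosen. The pooled list and each replicate list hold 30000 regions each, and signal is the peak caller's own value, not scaled between lists. The optimal set holds the 2892 pooled regions of highest signal, with the same values, down to 69.2. Its −log10 q is 3.89 throughout, so it does not separate the peaks. The lists carry no read counts, so the depth of each library is unknown, and the intervals given below are 95% Wilson intervals over genes or peaks that cover counting error only. Genes are not replicates, and no test between groups of samples was possible with a single group.

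A promoter peak of the optimal set was found at 22 of the 79 genes (27.8%, 19.2 to 38.6), beside 15.1% of all protein-coding genes. The initiation factors had 13 of 44 (29.5%, 18.2 to 44.2) and the synthetases 9 of 35 (25.7%, 14.2 to 42.1). Their difference of 3.83 percentage points had an interval of -16.1 to 22.5, which includes 0, and its sign turned in replicate 2 alone, where it was -6.43. Among the synthetases, 8 of 20 cytosolic genes (40%, 21.9 to 61.3) and 1 of 15 mitochondrial genes (6.67%, 1.19 to 29.8) had a peak. That difference was 33.3 points, with an interval of 3.94 to 55.4. Neither interval of a difference is a test, because genes are not replicates. It was 31.7 points in replicate 2 alone and 28.3 in replicate 3 alone.

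The wider lists gave the same order of the synthetase classes. A pooled region of any strength lay near a start of 32 of 44 initiation factor genes, 20 of 20 cytosolic and 12 of 15 mitochondrial synthetase genes, beside 56% of all genes. With genes outside the list placed lowest, the median pooled signal was 36.1 for the initiation factors, 54.5 for the cytosolic and 24 for the mitochondrial synthetases, and 21.9 for all genes. Any region was found at 61 of the 79 genes in replicate 2 (56.1% of all genes) and at 61 in replicate 3 (54.3% of all genes). Among the 2892 highest regions of replicate 2, which marked 15.7% of all genes, were those of 11 initiation factor, 9 cytosolic and 2 mitochondrial synthetase genes. The 2892 highest of replicate 3, which marked 14.2% of all genes, gave 11, 7 and 1. That 1 mitochondrial gene was AspRS-m (rank 2826), which had no optimal peak. Top regions of both replicates lay at 16 of the 79 genes (20.3%), beside 10.8% of all genes, and none of these 16 was mitochondrial.

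**Figure D1:**
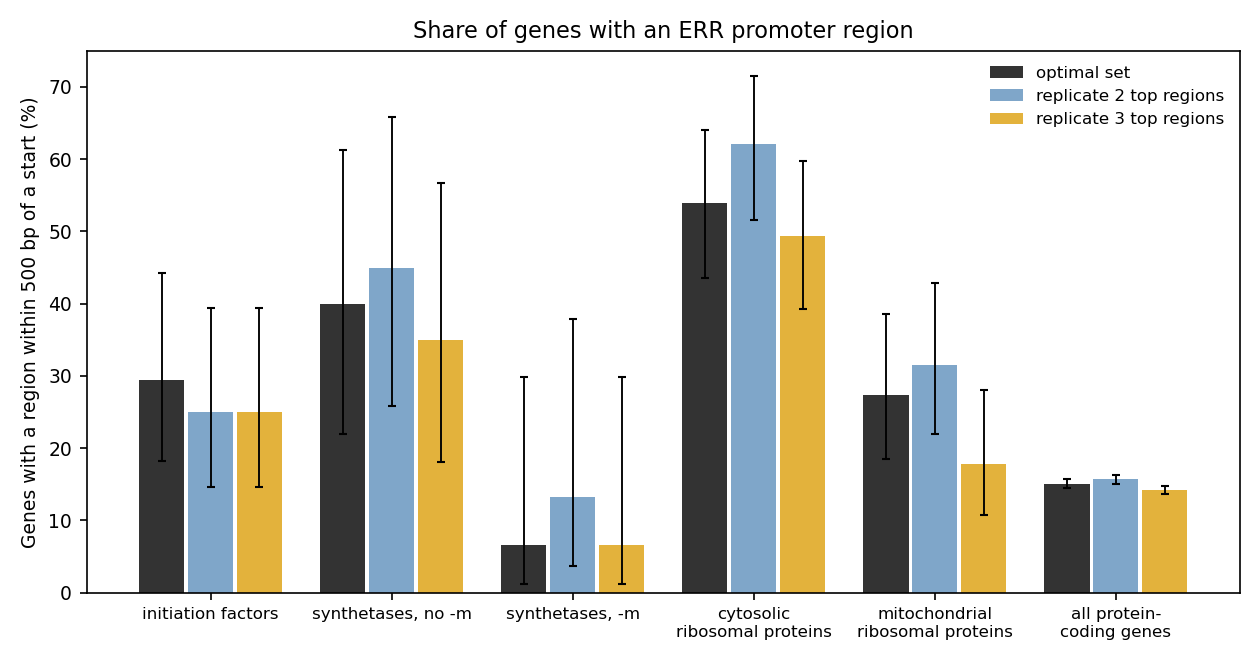
Share of genes with a region within 500 bp of a start, in percent, by class, for the optimal set and for the 2892 highest regions of each replicate; error bars are 95% Wilson intervals over genes. Of the classes drawn (initiation factors, both kinds of synthetase, both kinds of ribosomal protein and all genes), the mitochondrial synthetases have the lowest optimal share, 6.67%, and the cytosolic ribosomal protein genes the highest, 54%.

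The 7 sequences below are shown because they lie in the summit windows of member peaks and hold the letters found in several of them. All are dm6, 5′ to 3′ on the strand of the named gene, and capitals mark TATCGATA, the letters bound by DREF, which read the same on both strands. Each is named by the member whose peak it lies in. The match given for eIF1 is centred at -292.5 bp from the eIF1 start, under a summit nearer to the start of RpL28.
eIF2gamma, chr3R:15263459-15263554, minus strand: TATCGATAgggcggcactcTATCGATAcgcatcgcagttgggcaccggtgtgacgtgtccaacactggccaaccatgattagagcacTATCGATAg
eIF3a, chr3R:4433896-4433964, minus strand: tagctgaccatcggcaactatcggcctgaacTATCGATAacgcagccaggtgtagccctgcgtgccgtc
eIF3f1, chr3R:4714183-4714230, minus strand: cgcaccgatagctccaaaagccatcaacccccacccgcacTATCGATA
eIF1, chr3L:3223005-3223092, plus strand: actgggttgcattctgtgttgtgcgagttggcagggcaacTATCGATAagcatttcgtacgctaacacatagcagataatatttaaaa
eIF2A, chr3L:21824865-21824894, plus strand: ttactatcgctTATCGATAcaccgcgtaca
ArgRS, chrX:15844146-15844219, minus strand: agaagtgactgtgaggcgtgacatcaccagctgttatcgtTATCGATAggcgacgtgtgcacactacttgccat
IleRS, chr3L:22288583-22288664, plus strand: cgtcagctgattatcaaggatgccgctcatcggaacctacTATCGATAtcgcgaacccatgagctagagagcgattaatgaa

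A further pair of synthetase promoters held the M1BP letters GGTCACACT, in capitals below in either orientation (AGTGTGACC is the reverse complement). For beta-PheRS the ERR core AAGGTCA is shown as well.
GlnRS, chr3R:25265705-25265734, minus strand: cggtccggaacGGTCACACTgacctgcaca
beta-PheRS, chr3R:24252685-24252773, minus strand: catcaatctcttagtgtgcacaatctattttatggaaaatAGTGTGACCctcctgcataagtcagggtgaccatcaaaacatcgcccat
beta-PheRS, ERR core, chr3R:24252649-24252678, minus strand: gtactgcaaaatAAGGTCAccataaattgg

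Windows reaching 100 bp to each side of the summit were searched on both strands. TATCGATA lay in 7 of the 22 member windows (31.8%, 16.4 to 52.7) and in 9.12% of the windows of all 1710 optimal peaks near a protein-coding start. In eIF2gamma it was present in 3 copies, with centres at -92.5, -73.5 and -5.5 bp from the start. Within 50 bp of the summit the share was 13.6%, from 3 peaks, beside 5.67% of all promoter peaks, and within 250 bp it was 40.9% beside 13.7%.

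The letters of ERR itself were found at few of these peaks and at few of all promoter peaks. TNAAGGTCA, in which N is any base, was in none of the 22 windows, which allows a share of up to 14.9%, and in 1.17% of all promoter peaks. The shorter core AAGGTCA, which is part of it, was in 1 window, that of beta-PheRS (4.55%, 0.807 to 21.8), and in 3.1% of all promoter peaks. Within 250 bp of the summit the core was at 3 of 22 peaks (13.6%, 4.75 to 33.3), all 3 of them synthetase peaks, beside 5.73% of all promoter peaks. The longer element was then at 1 peak (4.55%) beside 2.05%. Departures from these letters were not counted. GGTCACACT was in 2 windows (4.68% of all promoter peaks) and shares the letters GGTCA with the ERR core, but in beta-PheRS the matches lie at separate places, on opposite sides of the start. Among the 42 members with a pooled region and no peak, 4 windows held GGTCACACT and 4 held TATCGATA. The same share was not counted over all genes with such a region, so no comparison can be drawn. GAGAGAG, the letters of the GAGA factor (GAF), was in 1 window, that of ArgRS-m (7.31% of all promoter peaks).

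**Figure D2:**
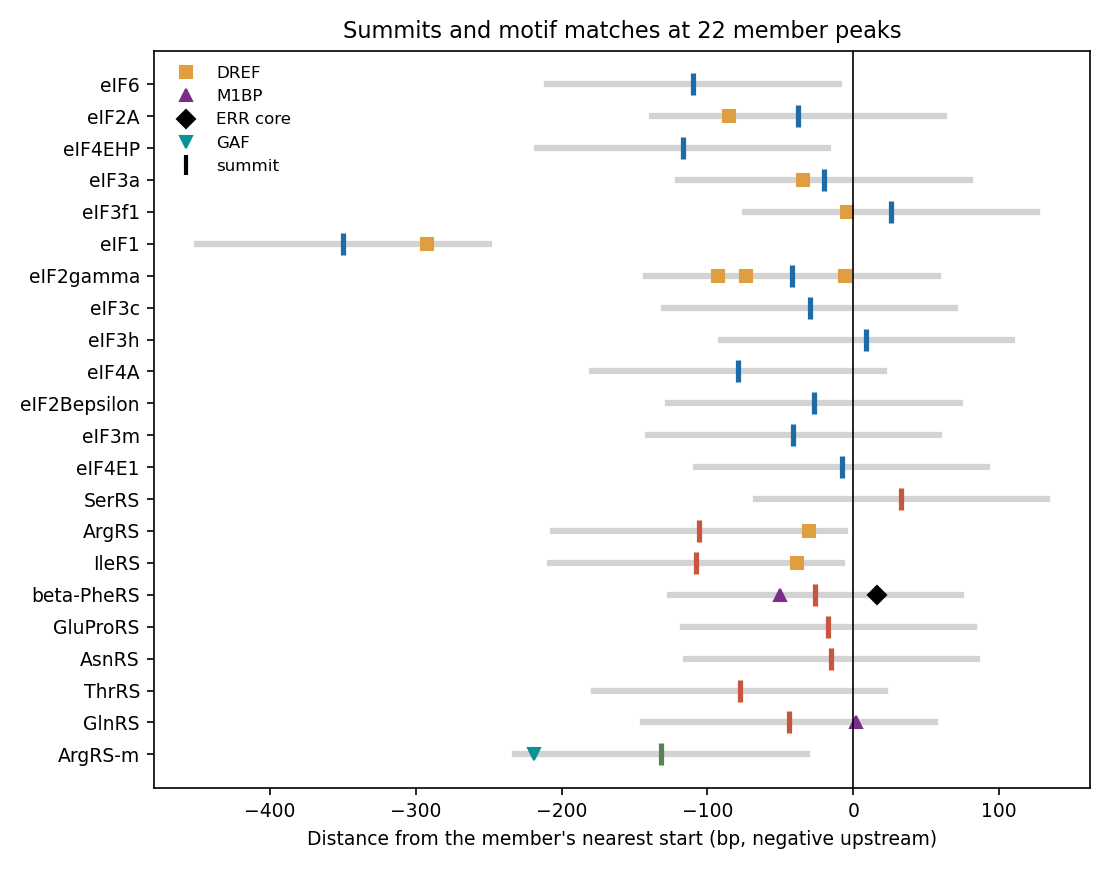
Position of the summit (vertical mark) and of motif matches (symbols at their centres) at the 22 members with an optimal peak, in bp from the nearest start of the member, with negative values upstream; grey bars show the searched window of 100 bp to each side and members are ordered by signal within class. The summit of eIF1 lies 350 bp upstream, and the 3 DREF matches of eIF2gamma lie on both sides of its summit.

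The strongest promoter of the set was that of eIF6 (FBgn0034915), which encodes a factor that binds the large ribosomal subunit and keeps it from joining the small one. Its region (2R, 23850260 to 23850559) had a pooled signal of 493, with 293 in replicate 2 and 205 in replicate 3. It ranked 49, 48 and 57 in the 3 lists, and the gene came 42nd among all genes by pooled signal. The summit lay 110 bp upstream of the start, in an exon of the noncoding RNA asRNA:CR45928, and near no other protein-coding gene. No other initiation factor reached a pooled signal above 142.

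The next highest initiation factor gene was eIF2A (FBgn0037135; 3L, 21824725 to 21825128), whose product can bring an initiator tRNA to the ribosome outside the main route. It had 142 in the pooled list, 74.5 in replicate 2 and 63.5 in replicate 3. eIF2gamma (FBgn0263740; 3R, 15263298 to 15263701), the subunit of eIF2 that holds GTP and the tRNA, had signals of 109, 64.1 and 43.9 in the same order. Its summit lay 42 bp from its own start and as far from the nearest start of a neighbour, with Set and Su(var)3-9 both in the window, so the peak does not identify its gene. The other subunits of eIF2 were weaker, eIF2beta with a pooled signal of 59.3 (rank 3839) and eIF2alpha with 41.5 (rank 7144), although the window of eIF2alpha held both TATCGATA and GGTCACACT. Of the 5 subunits of eIF2B, which recycles eIF2 by exchanging its nucleotide, the catalytic subunit gene eIF2Bepsilon (FBgn0023512) had a peak of 83 pooled, 37.5 in replicate 2 and 44.6 in replicate 3. It shared that peak with Ocrl, and its replicate 2 rank of 3434 lay outside the top 2892. eIF2Bdelta had 31.9, eIF2Bgamma 21.2, and eIF2Balpha and eIF2Bbeta had no pooled region. eIF1 and eIF1A, which act in start codon selection, had pooled signals of 109 and 39.6. The summit assigned to eIF1 (FBgn0035423; 3L, 3222980 to 3223088) lay 350 bp from its start and 31 bp from that of RpL28, a ribosomal protein gene.

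The eIF3 complex binds the small subunit and has the largest number of genes, 16, of which 5 had a peak (31.2%, 14.2 to 55.6) and 12 a pooled region (75%, 50.5 to 89.8). Both intervals include the shares of all genes, 15.1% and 56%. eIF3a (FBgn0037249; 3R, 4433713 to 4434116), a core scaffold subunit, led with 122 pooled, 64.9 in replicate 2 and 57.9 in replicate 3. Its start lay 20 bp from the summit and that of CG1074 50 bp from it. eIF3f1 (FBgn0037270; 3R, 4713954 to 4714357) had 116, 75.7 and 40.7, with its summit in its own 5' UTR. eIF3c (FBgn0034258; 2R, 17665446 to 17665849), another core subunit, had 107, 55.3 and 56. These lie close together in the pooled list, at ranks 934, 1024 and 1197. eIF3h (FBgn0022023; 2L, 5052744 to 5052873) had 104, 67.4 and 52.7 and shared its window with senju, and its replicate 2 summit lay 271 bp from the pooled one. eIF3m (FBgn0033902; 2R, 14164664 to 14165067) was near the limit at 70.4, and its replicates differed, with 61 at rank 1312 in replicate 2 and 16 at rank 12010 in replicate 3. Its peak was shared with CG8323, which starts 185 bp from the summit. Below the limit stood eIF3d1 with 56.8 (37.2 in replicate 2, 20.1 in replicate 3), eIF3e with 47.2 (23.1 and 23.2), eIF3k, eIF3b, eIF3j, eIF3g1 and eIF3i. eIF3d2, eIF3f2, eIF3g2 and eIF3l had no pooled region.

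The cap-binding genes were split. eIF4EHP (FBgn0053100; 3R, 24108875 to 24109278), a relative of eIF4E known in the fly embryo as a repressor that binds the cap without recruiting the ribosome, had 140 pooled, 78.9 in replicate 2 and 61.3 in replicate 3. CG18428 starts in the same window, 259 bp from the summit. eIF4E1 (FBgn0015218; 3L, 9402266 to 9402669), the main cap-binding factor, had 70.3, 41.5 and 28.6, just inside the limit of 69.2. Of the other members of the family eIF4E6 had 24.5, and eIF4E3, eIF4E4, eIF4E5 and eIF4E7 had no pooled region. The RNA helicase gene eIF4A (FBgn0001942; 2L, 5982313 to 5982716) had 100.9 pooled, with 39.7 in replicate 2 (rank 3075) and 59.4 in replicate 3 (rank 775). The scaffold gene eIF4G2 had 58.5 (33 and 24.8), eIF4H1 35.3 and eIF4G1 25.6, while eIF4B and eIF4H2 had no pooled region. eIF5B, which acts when the subunits join, and eIF5 had 30.1 and 17.6 and no peak.

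Numbered paralogues of the initiation factors held no peak. None of the 10 initiation factor genes with a number from 2 up added to the symbol of a relative, including eIF4E3 to eIF4E7, had a peak, with an upper bound of 27.8% that includes the 15.1% of all protein-coding genes. A pooled region was found at 2 of them, eIF4G2 and eIF4E6 (20%, 5.67 to 51), beside 56% of all genes. The eIF4G2 summit lay 28 bp from its start and equally far from that of CG33111. The eIF4E6 summit lay 82 bp from its start and 20 bp from that of CG1951. Neither region identifies its gene. Without them 13 of 34 genes had a peak (38.2%, 23.9 to 55) and 30 of 34 a pooled region.

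**Figure D3:**
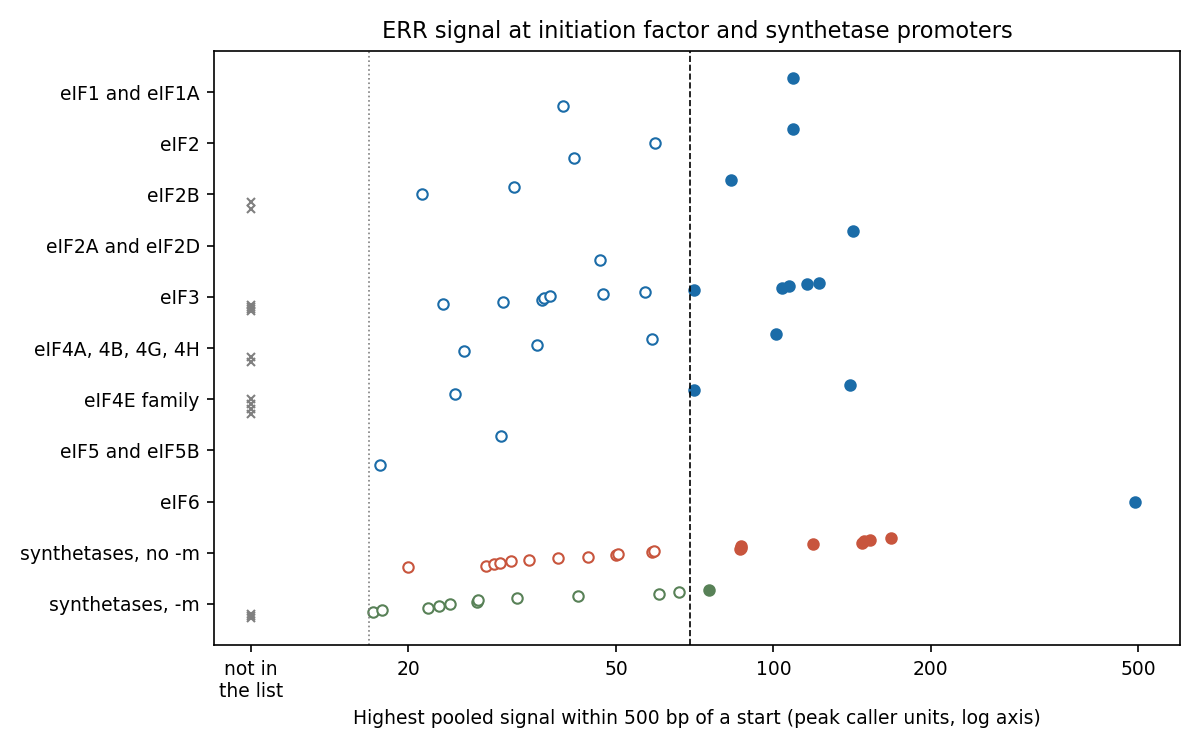
Highest pooled signal within 500 bp of a start for each of the 79 genes by role, on a log axis in the peak caller's units; filled points lie in the optimal set, open points in the pooled list alone, and crosses are genes with no pooled region. The dashed line is the optimal limit of 69.2 and the dotted line the lowest pooled signal of 16.8; eIF6, at 493, stands alone at the right.

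Among cytosolic synthetases, 4 genes had pooled signals between 148 and 168. SerRS (FBgn0031497; 2L, 3037168 to 3037571), the enzyme for serine, had 168 pooled, 108 in replicate 2 and 63.1 in replicate 3. The summit fell in the SerRS 5' UTR, 33 bp from the start and 41 bp from that of CG17260. ArgRS (FBgn0027093; X, 15844049 to 15844452) had 153, 87.6 and 65.8, near CG8578. IleRS (FBgn0027086; 3L, 22288498 to 22288641) had 149, 79.6 and 70.4, near Hem. beta-PheRS (FBgn0039175; 3R, 24252667 to 24252784) had 148, 96.2 and 53.8 and was the only synthetase with a peak and no neighbouring start in the window. These ranked between 457 and 623 in the pooled list. Their order differed between the replicates, with SerRS highest in replicate 2 and IleRS in replicate 3.

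The cytosolic phenylalanine enzyme is built of an alpha and a beta subunit, and their promoters differed. alpha-PheRS had 28.2 pooled, 11.1 in replicate 2 and 14.9 in replicate 3, from a summit in its coding sequence 495 bp from the start, against 148 for beta-PheRS. GluProRS (FBgn0005674; 3R, 23958206 to 23958609), a single protein with activities for glutamate and proline, had 119, 84.7 and 43.4, near AP-1sigma.

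A weaker group of 3 cytosolic genes was nearly level in the pooled list. AsnRS (FBgn0086443; 2L, 19131767 to 19132170), with DCTN6-p27 in its window, had 86.7 pooled, 54.7 in replicate 2 and 31.9 in replicate 3. ThrRS (FBgn0027081; 2L, 12103471 to 12103874), with Patsas, had 86.5, 48.4 and 34.7. GlnRS (FBgn0027090; 3R, 25265563 to 25265966), with RIOK2, had 86.3, 45 and 33.6. AsnRS fell just outside the top 2892 of replicate 3, at rank 2985. The highest below the limit were CysRS with 59.1 (33.2 in replicate 2, 21.6 in replicate 3) and AspRS with 58.6 (43.4 and 28.7), followed down to LeuRS with 20. The summit given for AspRS lay 466 bp from its start and 20 bp from that of Nmda1, and the replicate 3 region lay 3083 bp from it.

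The mitochondrial synthetase with a peak was ArgRS-m (FBgn0037526; 3R, 7886711 to 7887114), with 75.1 pooled. Its replicates differed, with 57.5 at rank 1477 in replicate 2 and 19.8 at rank 7857 in replicate 3, and CG17816 starts in the same window. PheRS-m (65.8 pooled, 34 and 31.3 in the replicates), LeuRS-m (60.3, 43.5 and 23.9), AspRS-m (42.2, 27.2 and 32.7) and SerRS-m (32.3, 13.4 and 19.9) came next, and a further 7 had pooled signals from 17.1 to 27.2. AlaRS-m, MetRS-m and ValRS-m had no pooled region, so 3 of 15 mitochondrial and none of 20 cytosolic genes were outside that list.

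Matched by amino acid, the cytosolic gene usually had the higher signal. For 15 amino acids there was a gene of each kind, giving 16 pairs, because phenylalanine has 2 cytosolic subunit genes. GluProRS was paired with both GluRS-m and ProRS-m. The cytosolic gene was higher in 14 of 16 pairs in the pooled list, in 13 in replicate 2 and in 13 in replicate 3. For alanine, methionine and valine it counted as higher in the pooled list because the -m gene had no region there. The exceptions in every list were leucine, with 20 for LeuRS and 60.3 for LeuRS-m pooled, and the alpha-PheRS pair. The pooled summit given for LeuRS-m lay 85 bp from its own start and 81 bp from that of Dhc64C, so the region does not identify its gene. The same limit holds in pairs where the cytosolic gene was higher. A neighbour's start was nearer to the pooled summit at CysRS-m, TyrRS-m, AsnRS-m, ProRS-m, AspRS and MetRS. The summit given for SerRS-m lay 485 bp from its start, in an intron of Nagk. The tyrosine pair turned in replicate 2 and the aspartate pair in replicate 3. GlnRS, GlyRS, HisRS, LysRS and ThrRS have no -m partner by symbol, and whether any of them also encodes a mitochondrial form was not examined. Without these genes, 6 of 15 cytosolic and 1 of 15 mitochondrial genes had a peak.

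**Figure D4:**
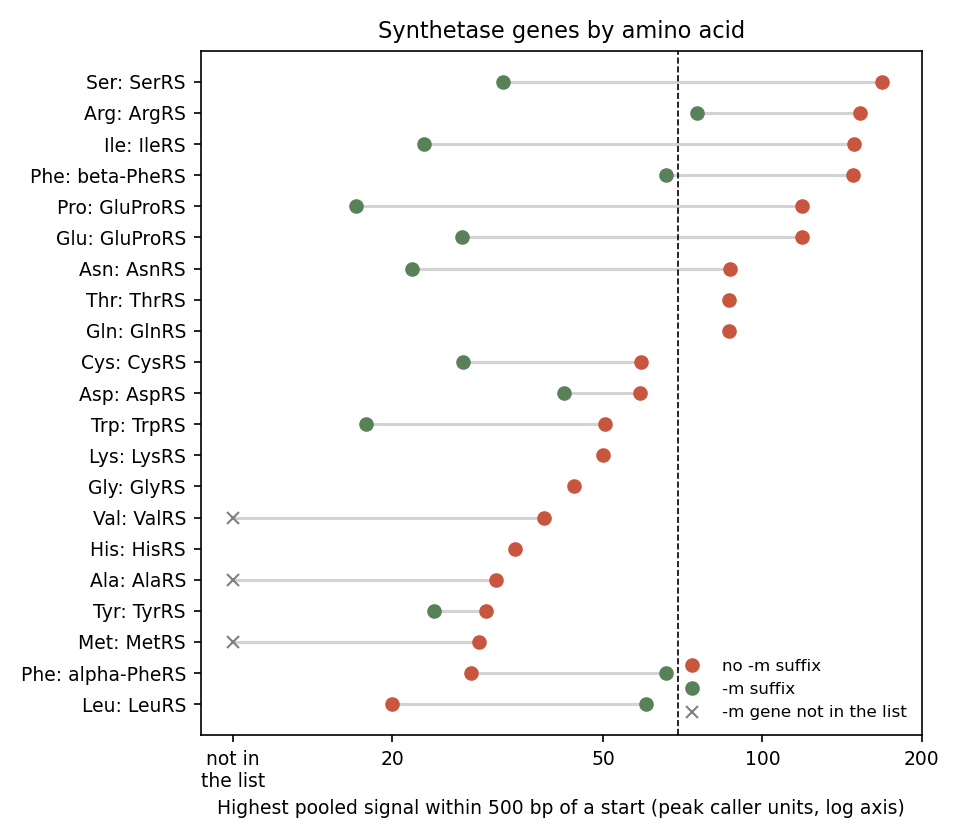
Highest pooled signal within 500 bp of a start for cytosolic (red) and mitochondrial (green) synthetase genes by amino acid, on a log axis in the peak caller's units; grey lines join the genes of a pair, crosses are -m genes with no pooled region and the dashed line is the optimal limit of 69.2. The green point lies to the right of the red one for leucine and for alpha-PheRS.

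Most of the peaks also lay near the start of a neighbour. Of the 22 member peaks, 15 (68.2%, 47.3 to 83.6) had a start of a further protein-coding gene within 500 bp of the summit, beside 32.9% of all promoter peaks. The share was 7 of 13 for initiation factors and 8 of 9 for synthetases. A neighbouring start within 500 bp was also common among these genes whether or not they had a peak, at 19 of 44 initiation factors (43.2%), 16 of 20 cytosolic (80%) and 7 of 15 mitochondrial synthetases (46.7%), beside 30.9% of all genes. Genes with such a neighbour had an optimal peak in 35.7% of the set and in 27.1% of all genes, and those without in 18.9% and 9.73%. Within the genes that have a neighbour, 7 of 16 cytosolic and 1 of 7 mitochondrial synthetases had a peak. Counting peaks near a single gene alone, 6 initiation factor, 1 cytosolic and 0 mitochondrial synthetase genes remained, beside 7.44% of all genes, so the difference between the synthetase classes fell to 1 gene. The part of neighbouring genes in these shares was not tested.

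The summits were close to the starts. The median distance to the member's own start was 39.5 bp, from 8 to 350, with 14 of 22 within 50 bp and 20 within 120 bp. Of the summits, 19 lay upstream of the start and 3 downstream, and by annotation 16 were intergenic, 5 in a 5' UTR and 1 in another exon. Counting the nearest start of any protein-coding gene, 15 of 22 (68.2%) lay within 50 bp, beside 33.5% of all promoter peaks. The member's start was the nearest one at 20 peaks. At eIF2gamma a neighbour's start was equally near, and at eIF1 that of RpL28 was nearer. Median signal was 109, beside 98.4 for all promoter peaks.

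Replicate values followed each other over the set. For the 55 members with a region in both replicate lists, Spearman's rho was 0.822, beside 0.708 over the 6506 such genes of all, a description across genes that share the same libraries. Replicate 2 was higher at 41 of the 55 and replicate 3 at 14, and the median ratio of 1.32 was near that of all genes, 1.3. Of the 22 peaks, 16 were among the top 2892 of both replicates. The exceptions were eIF4A and eIF2Bepsilon, which missed that rank in replicate 2, and AsnRS, eIF3m, eIF4E1 and ArgRS-m, which missed it in replicate 3.

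**Figure D5:**
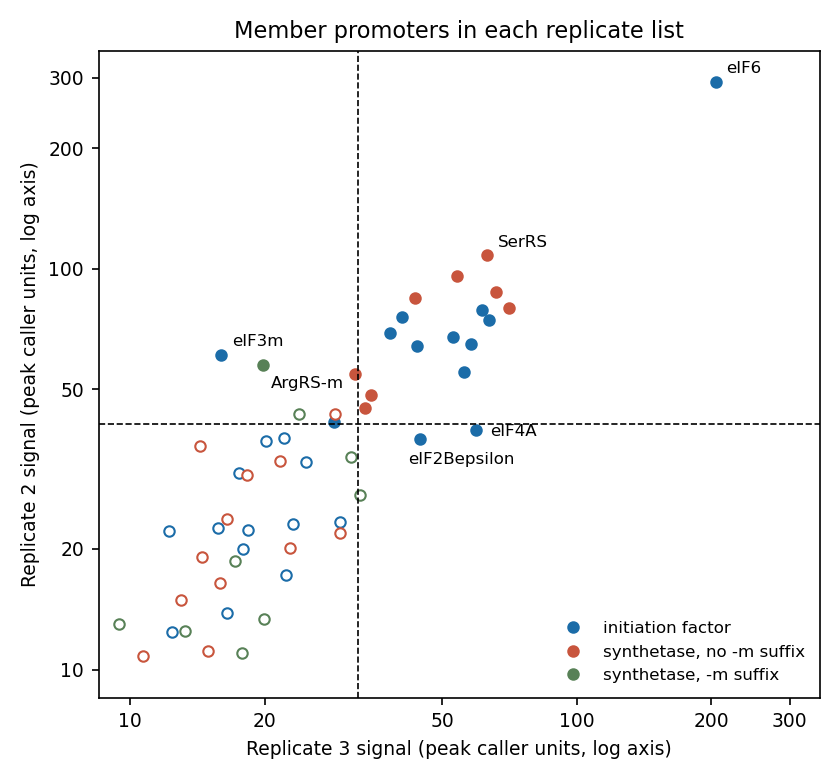
Signal in replicate 2 against replicate 3, both on log axes in the peak caller's units, for the 55 members with a region in both lists; filled points have an optimal peak and dashed lines mark the lowest of the 2892 highest regions of each replicate, 41.1 and 32.4. The points of eIF3m and ArgRS-m lie above the horizontal line and left of the vertical one.

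Other genes of translation were counted from lists by symbol. Of 9 elongation and termination genes, 5 had a peak (55.6%, 26.7 to 81.1), beside 15.1% of all protein-coding genes. They were led by eEF1gamma (pooled signal 160, with 81.9 in replicate 2 and 76.8 in replicate 3) and the translocation factor gene eEF2 (102, 70.2 and 27.2). Next came eEF1alpha1, whose product carries tRNAs to the ribosome (95.5, 74.5 and 50), and eEF5 (82.2, 55.5 and 31.3). Of 9 mitochondrial translation factor genes, 2 had a peak (22.2%, 6.32 to 54.7), mRF1 (81.1, 48.9 and 37.4) and mEFTu2 (70.2, 37.3 and 23.9). That interval includes the 15.1% of all genes. Of 12 regulators and partners of initiation, 3 had a peak (25%, with an interval of 8.89 to 53.2 that also includes 15.1%). These were Thor, the eIF4E-binding protein that restrains cap-dependent initiation (139, 97 and 49.7), Lk6, a kinase of eIF4E (81.9 pooled and 74 in replicate 2, with no region near a start in replicate 3), and pAbp, the poly(A)-binding protein (75.6, 46 and 29.4). None of 3 synthetase partner genes had one (upper bound 56.1%), AIMP1 being highest at 55. The ribosomal protein genes, for comparison, had a peak at 47 of 87 cytosolic (54%, 43.6 to 64.1) and 20 of 73 mitochondrial genes (27.4%, 18.5 to 38.6). The share of the 79 genes was 27.8% (19.2 to 38.6), and the differences between these sets were not tested. The peak counted for eIF1 is also the one counted for RpL28, with the same signals of 109, 69.2 and 38.2.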

How the data were processed

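ChIP-seq region lists of 2 biological replicates of ERR-GFP embryos were used as the authors deposited them, on build dm6. Per the notes deposited with the files, the relaxed lists derive from the alignments of each replicate or of both pooled, with 1 further file that the notes do not describe, and the optimal peaks derive from the replicate and pooled lists by the irreproducible discovery rate. Which aligner and peak caller were run, and in which version, is not given in the sources used here. For each region, the signal and the −log10 q-value are the values the authors deposited. The 4 lists on dm3 were not used.

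Gene models were Ensembl release 115 (BDGP6.54); sequence was read from NCBI release 6, which matches dm6 in arm lengths. Coordinates are 1-based. A gene took the region of highest signal with its summit within 500 bp of any start. The members and lists were chosen with earlier results of these data known. Every member with an optimal peak is named, with the 4 highest of each class below the limit; members further down are named to complete each role. Genes of the other lists named are up to 4 per list with the highest values. The listed symbols mEFG2 and SLIMP matched no single gene model and were left out. Alternatives were start windows of 200 and 1000 bp, any base of the region, the 5'-most start, the higher-signal 50% of peaks, each replicate alone, peaks near 1 gene, amino acids with both genes, paralogues left out and other motif windows. The split by neighbouring starts and the search of whole promoters were added after seeing the data. The code was tested on simulated data, where 200 of 200 planted motifs were found and 0 of 13945 genes differed from a direct search. Python 3.11.15, pandas 2.3.3, numpy 2.4.6 and SciPy 1.17.1 were used.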

Additional observations from a re-analysis of the deposited data

How the results depend on the processing

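Of 55 alternative values for the class and motif shares, 48 stayed within the interval of the reported value or kept the sign of the difference. Counting peaks near 1 gene alone lowered the share to 13.6% for initiation factors, 2.86% for all synthetases, 5% for cytosolic and 0% for mitochondrial synthetases. The share of all genes was then 7.44%, above those of the synthetases. In the higher-signal 50% of peaks the mitochondrial share was also 0%, beside 8.16% of all genes. Within 50 bp of the summit the DREF share was 13.6%, beside 5.67% of all promoter peaks. Leaving out each replicate in turn gave a difference between initiation factors and synthetases of -6.43 to 2.14 points, and one between cytosolic and mitochondrial synthetases of 28.3 to 31.7 points. Shares then were 25% each time for initiation factors, 22.9 to 31.4% for all synthetases, 35 to 45% for cytosolic and 6.67 to 13.3% for mitochondrial synthetases. For all genes they were 14.2 to 15.7%. Of 60 ranks of named genes in 1 replicate, 52 kept their side of rank 2892, 6 lost it and 2 gained it, LeuRS-m (2594) and AspRS (2611) in replicate 2. AspRS-m, which is not among the genes counted there, also gained it, at rank 2826 in replicate 3. Of 90 signals of named genes, 86 held, and that of LeuRS-m was 64.1 with starts of 1000 bp. With starts of 200 bp eIF1, eIF2beta and AspRS had no region at all. This took the initiation factors with a peak from 13 to 12 (27.3%, beside 11.4% of all genes). Leaving out shared peaks and narrowing the window can only lower a share; the other causes were not tested. No paired analysis was possible because the 2 replicates form 1 group. Depth is unknown, and the small classes limit the precision of every share.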

Other observations

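The letters TATCGATA were also counted in the stretch from 250 bp before to 50 bp after any start of every gene, with or without a peak, a count added after seeing the data. They were found at 19 of the 79 genes (24.1%) and at 10.2% of all genes. Of the 19 genes, 9 had an optimal peak (47.4%), beside 25% of all genes with the letters, and of the other 60 genes 13 did (21.7%), beside 14% of all genes without them. This gap lay in the initiation factors, with a peak at 7 of 13 genes with the letters (53.8%) and 6 of 31 without (19.4%). Of the 10 numbered paralogues, none of which had a peak, only eIF4E6 held the letters. The rest are among the 31, which lowers the share there, and the counts are small. For cytosolic synthetases the share was 40% both ways (2 of 5 and 6 of 15), and mitochondrial ones had 0 of 1 and 1 of 14. The 19 include eIF6, eIF3c and eIF4A, whose summit windows held no match, and eIF4B, eIF3l and eIF2Bbeta, which had no pooled region. TNAAGGTCA was in none of the 79 promoters and in 0.861% of all genes. GGTCACACT was found at 9 of the 79 genes (11.4%) and at 6.78% of all genes. Of these 9, 2 had a peak (22.2%), both cytosolic synthetases, beside 24.4% of all genes with the letters. Of the other 70, 20 did (28.6%), beside 14.4% of all genes without them. GAGAGAG was at 6.33% of the 79 and 9.08% of all genes, and AAGGTCA at 1.27% and 2.83%.

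The strongest peak of the whole optimal set, with a signal of 3946 at the promoters of Pglym78 and CG11882 (3R, 29147908 to 29148620), has its summit 3493 bp from the start of eIF2D and 1595 bp from the edge of that gene. The promoter of eIF2D itself had a pooled signal of 46.5, with 23.4 in replicate 2 and 29.5 in replicate 3.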
